A study of Mus musculus with 18 samples.

Results

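Complex I of the respiratory chain was followed through 44 mouse genes whose symbols begin with Nduf, out of 18194 genes that the arrays represented with a probe set naming 1 gene. They were chosen by name, and where several probe sets named a gene the one with the highest average across the 18 arrays stood for it. Of the 44 genes, 36 carry subunit names and 8 carry the Ndufaf names of assembly factors. Genes entered the test when the average of any region came to 5.18 or more, the median of all log2 values, and 43 of the 44 genes and 11741 genes in all were tested. Ndufb4, an accessory subunit of the membrane arm, was not tested, since its probe set lay between 3.75 and 4.52 on all arrays.

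The mice were C57BL/6J males of 14 weeks that had received MPTP at 30 mg/kg or saline by intraperitoneal injection once daily for 5 days, and tissue was taken 4 days after the last injection. Midbrain, striatum and frontal cortex gave 3 arrays per treatment, in the 6 groups midbrain MPTP, midbrain saline, striatum MPTP, striatum saline, frontal cortex MPTP and frontal cortex saline. All values are log2 expression summaries that the authors made by RMA, and a log2 difference is given below as MPTP minus saline or as the first region minus the second. Each value comes from whole dissected tissue, in which fewer cells of a type and less RNA per cell cannot be told apart.

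Complex I oxidises NADH in the mitochondrial matrix, passes the electrons to ubiquinone and pumps protons across the inner membrane. Its peripheral arm reaches into the matrix and holds the flavin and the iron-sulfur clusters, and its membrane arm holds the proton channels, whose core proteins are encoded in mitochondrial DNA and carry other names. Assembly factors build the enzyme and are not part of the finished complex. MPTP is converted in the brain to MPP+, which is taken up by dopaminergic neurons and inhibits complex I, and loss of complex I activity in the substantia nigra is known in Parkinson's disease.

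The arrays were checked against their labelled regions first. All 5 cortical markers were lower in saline striatum than in saline frontal cortex, and all 5 striatal markers were higher. Of 5 dopaminergic markers tested, 4 were higher in saline midbrain than in saline frontal cortex, among them Th, the rate-limiting enzyme of dopamine synthesis, by 3.67. The interquartile range of an array lay between 3.37 and 3.65, with the lowest values in midbrain saline replicate 2 (3.37), frontal cortex saline replicate 2 (3.38) and striatum saline replicate 1 (3.40). In the midbrain of MPTP mice Th was lower by 0.82 than in that of saline mice (log2 difference -0.82, limma adjusted p = 0.133), and none of the 5 dopaminergic markers was called in that comparison.

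Promoter sequence is shown for 4 genes on which the results below turn: Ndufaf4, the 1 Nduf gene that rose with MPTP in the mean over the regions; Ndufaf5 and Ndufb5, with 2 of the widest excesses in midbrain; and Ndufaf8, which was lower in midbrain. Each stretch holds the 120 bases before the annotated start of the gene, from RefSeq on GRCm38.p6. Capitals mark matches to 1 of 3 motifs, searched on both strands: the NRF1 core motif GCATGCGC, the ETS motif CCGGAAG and the YY1 motif AAGATGGCG.
Ndufaf4 (chr4:24897963-24898082, plus strand): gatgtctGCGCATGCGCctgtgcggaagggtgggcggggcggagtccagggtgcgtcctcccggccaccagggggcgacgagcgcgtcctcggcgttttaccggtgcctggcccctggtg
Ndufaf5 (chr2:140170526-140170645, plus strand): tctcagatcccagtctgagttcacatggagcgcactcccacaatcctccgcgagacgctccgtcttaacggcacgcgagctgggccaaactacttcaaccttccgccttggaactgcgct
Ndufb5 (chr3:32736943-32737062, plus strand): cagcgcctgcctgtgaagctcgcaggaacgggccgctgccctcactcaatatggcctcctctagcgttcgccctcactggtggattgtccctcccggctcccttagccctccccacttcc
Ndufaf8 (chr11:120098814-120098933, plus strand): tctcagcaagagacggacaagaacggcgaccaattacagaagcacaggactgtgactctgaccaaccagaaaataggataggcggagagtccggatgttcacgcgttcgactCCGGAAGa

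The capitals of Ndufaf4 hold the NRF1 core once on each strand, in overlapping letters. In the full windows, 250 bases before to 50 bases after the start, Ndufaf4 and Ndufaf5 also held NRF1 matches after their starts, and Ndufaf8 a YY1 match after its start. The window of Ndufb5 held none of the 3 motifs. Of the 39 Nduf genes with a window, 4 held an NRF1 match (10.3%, against 3.05% of all 27025 genes with a window), 6 an ETS match (15.4%, against 9.93%) and 5 a YY1 match (12.8%, against 1.64%). These NRF1 matches were in Ndufa6, Ndufa8, Ndufaf4 and Ndufaf5. The core has 8 letters and was taken after a form of 10 letters with 1 free base had been searched, which matched 7 of the 39 genes (17.9%, against 5.19% of all genes). No match of one of the 3 motifs overlapped a match of another in these windows, and a match describes letters only. The 27025 genes were not limited by gene type or expression, while the Nduf genes are all protein-coding, so the 2 sets are not matched.

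The regions were compared to ask how complex I transcripts are spread over the brain. Most Nduf genes were highest in midbrain. Among saline mice, 34 of the 43 genes had their highest mean in midbrain, and 40 of 43 did so among MPTP mice. How many of all genes had their highest mean in midbrain is not given here, so these counts have no background. In saline midbrain 28 of 43 Nduf genes (65.1%) were higher than in saline frontal cortex and none was lower, at an adjusted p under 0.05 by limma over all genes tested. Of all genes tested, 27.8% were called higher and 23.6% lower in that comparison. The median difference of the Nduf genes was 0.24, against 0.02 over all genes.

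Saline midbrain also exceeded saline striatum in 23 of 43 Nduf genes, with 2 lower, against 33.4% of all genes called higher and 24.8% lower. The median was 0.18, against 0.05 over all genes, and it was 0.24 without midbrain saline replicate 2. Both comparisons use the same midbrain arrays. Saline striatum and saline frontal cortex differed less evenly: 8 Nduf genes were higher in striatum and 1 was lower, against 20.5% and 23.5% of all genes (44% in all), with a median of 0.01. Centring on the array median gave 3 higher and 4 lower, with a median of -0.04, and a second quantile normalization gave 14 higher and 3 lower. For these refits the shares of all genes are not given here. That count of 9 was 5 without frontal cortex saline replicate 1, 4 without frontal cortex saline replicate 2 and 4 without striatum saline replicate 1.

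The MPTP arrays, which are other arrays, gave the same comparisons a second time. In MPTP mice 30 Nduf genes were higher and 1 was lower in midbrain than in frontal cortex, against 29.3% and 25% of all genes. The genes called in both treatments with the same sign numbered 27, which is 96.4% of those called in saline mice and 87.1% of those called in MPTP mice. Midbrain against striatum gave 30 higher and 1 lower in MPTP mice, against 37.7% and 21.5% of all genes, and 24 genes were shared, 96% of the saline calls and 77.4% of the MPTP calls. For striatum against frontal cortex MPTP mice had 3 higher and 9 lower, against 18.8% and 30.4% of all genes (49.2% in all), and 4 genes were shared, 44.4% of the saline calls and 33.3% of the MPTP calls. What share of all genes was called in both treatments is not given here, so the shared counts have no background. The 12 calls of MPTP striatum against frontal cortex were 7 without frontal cortex MPTP replicate 3.

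**Figure D1:**
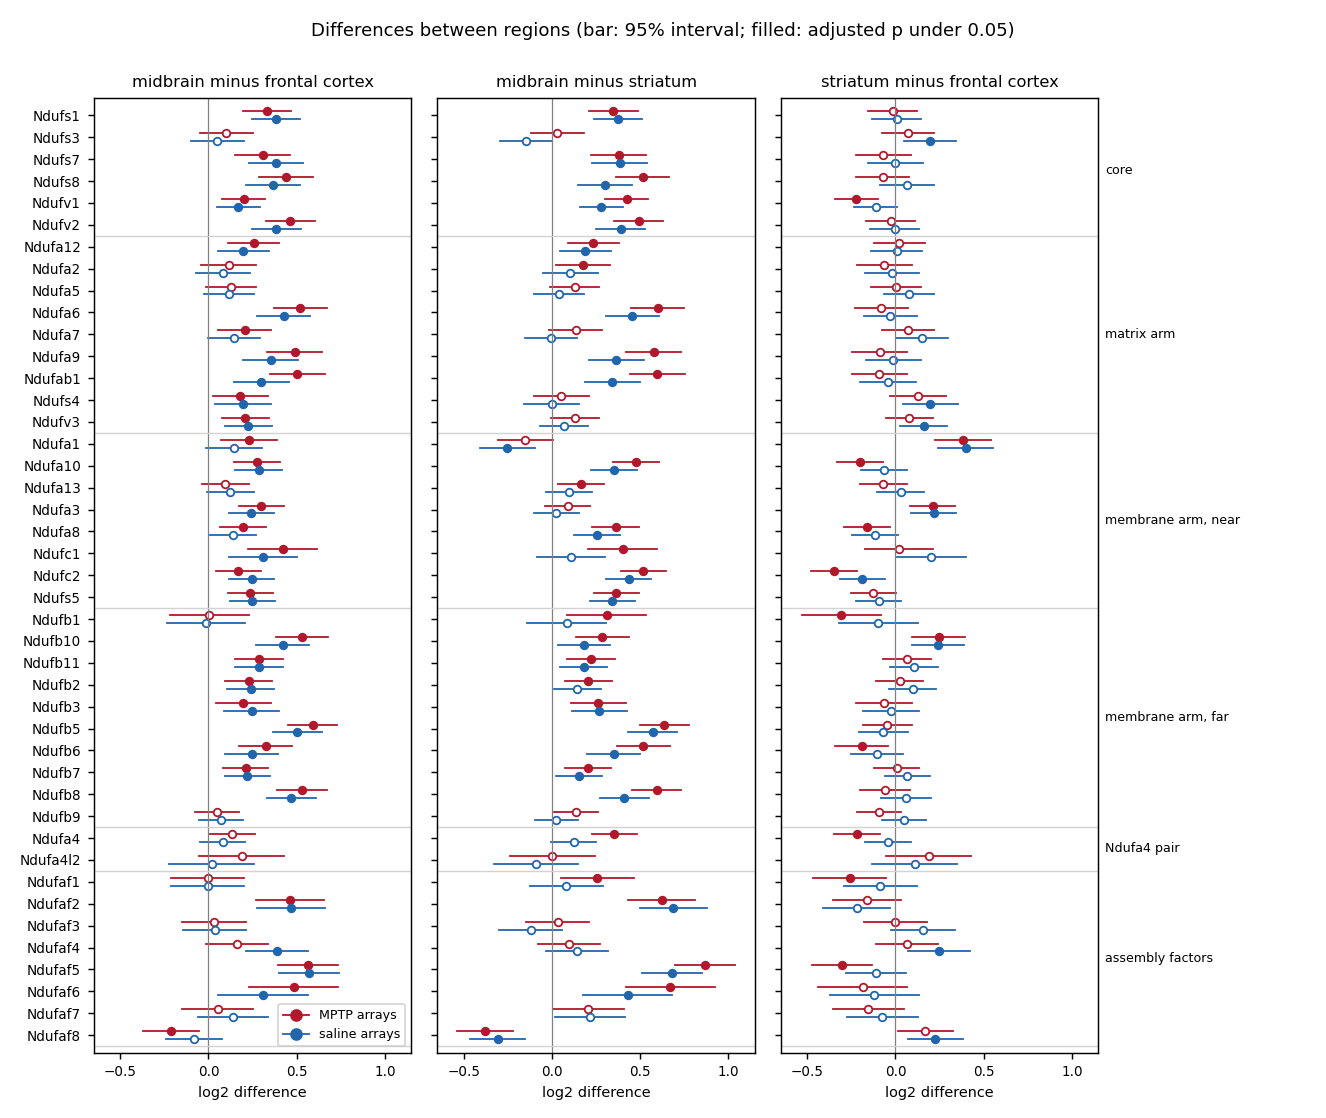
Log2 differences between regions for the 43 Nduf genes tested, with the 95% interval as a bar, MPTP arrays in red above saline arrays in blue, and filled points for an adjusted p under 0.05. Grey lines separate the core, the matrix arm, the near and far parts of the membrane arm, the Ndufa4 pair and the assembly factors; in saline midbrain 28 genes were called higher than in frontal cortex and none lower.

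The core of the matrix arm carries the flavin and the iron-sulfur clusters. Of its 6 genes tested, 5 were higher in saline midbrain than in saline frontal cortex and the same number were higher than in saline striatum, with medians of 0.37 and 0.34. Ndufv1, which binds NADH and takes its electrons, differed by 0.17 between saline midbrain and frontal cortex, and Ndufv2 differed by 0.38. Ndufs1, which holds iron-sulfur clusters, differed by 0.38, and Ndufs7 and Ndufs8, which carry electrons toward ubiquinone, by 0.38 and 0.36. Ndufs3 was the core gene not called there, at 0.05 (adjusted p = 0.593), and it was 0.20 higher in saline striatum than in saline frontal cortex (limma adjusted p = 0.0294).

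Accessory subunits surround the core and are needed for its assembly or stability. In saline midbrain against saline frontal cortex 6 of 9 accessory genes of the matrix arm were higher, as were 5 of 8 in the part of the membrane arm next to it and 8 of 10 in its far part, and none was lower. Their medians were 0.20, 0.24 and 0.24. Ndufa4 and its paralog Ndufa4l2 keep their complex I names although Ndufa4 is now counted with complex IV, and neither was called between saline regions.

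Ndufb5, an accessory subunit of the far membrane arm, had 11.40, 11.24 and 11.44 in saline midbrain, 10.81, 10.78 and 10.78 in saline striatum and 10.82, 10.86 and 10.90 in saline frontal cortex. Every midbrain array lay above every array of both other regions. The differences were 0.57 ± 0.067 (SE) from striatum (limma adjusted p = 9.8e-08) and 0.50 ± 0.067 from frontal cortex (adjusted p = 8.3e-07), and in MPTP mice they were 0.64 and 0.59.

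Ndufa6, an accessory subunit of the matrix arm, had 10.58, 10.47 and 10.58 in saline midbrain, against 10.06, 10.17 and 10.04 in saline striatum. The groups did not overlap. The difference was 0.46 ± 0.073 (limma adjusted p = 9.2e-06), and in MPTP mice it was 0.60. Ndufb8, of the far membrane arm, was 0.47 ± 0.068 higher in saline midbrain than in saline frontal cortex (adjusted p = 2.8e-06) and 0.53 higher in MPTP mice.

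Among the assembly factors 4 of 8 were higher in saline midbrain than in saline frontal cortex and none was lower, with a median of 0.22. Ndufaf5, an enzyme that in human cells hydroxylates the Ndufs7 protein during assembly, had 8.72, 8.56 and 8.77 in saline midbrain, 7.96, 8.04 and 8.02 in saline striatum and 8.13, 8.05 and 8.16 in saline frontal cortex. Midbrain stood apart from both other regions on every array. The differences were 0.68 ± 0.082 from striatum (limma adjusted p = 1.6e-07) and 0.57 ± 0.082 from frontal cortex (adjusted p = 2.6e-06), and 0.87 and 0.56 in MPTP mice.

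Ndufaf2, a paralog of Ndufa12 that acts late in assembly, had 8.62, 8.39 and 8.61 in saline midbrain, 7.77, 7.96 and 7.83 in saline striatum and 8.0, 8.08 and 8.14 in saline frontal cortex. Its midbrain arrays again lay above all others of the saline mice. The differences were 0.69 ± 0.093 from striatum (limma adjusted p = 8.1e-07) and 0.47 ± 0.093 from frontal cortex (adjusted p = 0.000158), and 0.62 and 0.46 in MPTP mice.

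Ndufaf8 and Ndufa1 ran the other way and were the 2 genes called lower in saline midbrain than in saline striatum. Ndufaf8, a partner of Ndufaf5 in human cells, had 9.09, 8.99 and 9.06 in saline midbrain, 9.41, 9.42 and 9.23 in saline striatum and 9.12, 9.09 and 9.18 in saline frontal cortex. The striatal arrays were the highest and did not overlap the others. Ndufaf8 differed by -0.31 ± 0.076 between saline midbrain and striatum (limma adjusted p = 0.00128) and by -0.38 in MPTP mice, and in MPTP midbrain it was also lower than in MPTP frontal cortex, by -0.21 (adjusted p = 0.0218).

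Ndufa1, an X-linked subunit at the joint of the 2 arms, had 11.89, 11.75 and 11.75 in saline midbrain, 12.08, 12.07 and 12.01 in saline striatum and 11.70, 11.56 and 11.69 in saline frontal cortex. Striatum was again the highest on every array. Its difference between saline midbrain and striatum was -0.25 ± 0.076 (limma adjusted p = 0.00618), against -0.15 in MPTP mice, which was not called (adjusted p = 0.0895). Between saline striatum and frontal cortex it had the widest positive difference of the Nduf genes, 0.40 ± 0.076 (adjusted p = 0.000127), and it was 0.38 in MPTP mice.

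The other genes named between saline striatum and frontal cortex were Ndufaf4 (0.24, adjusted p = 0.022), Ndufb10 of the far membrane arm (0.24, adjusted p = 0.00873), Ndufaf8 (0.23, adjusted p = 0.0184) and, lower in striatum, Ndufc2 of the near membrane arm (-0.19, adjusted p = 0.0162), all by limma. In MPTP mice the same differences were 0.06, 0.24, 0.17 and -0.35.

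**Figure D2:**
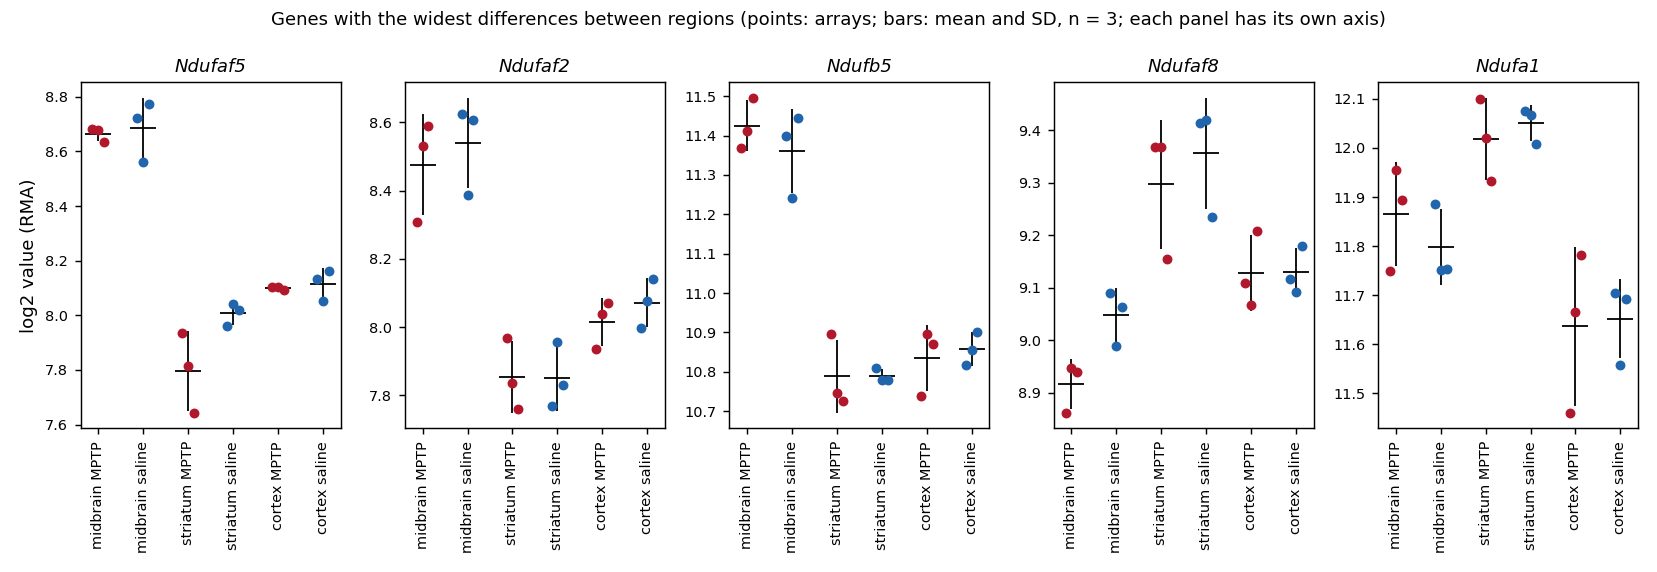
RMA log2 values of Ndufaf5, Ndufaf2, Ndufb5, Ndufaf8 and Ndufa1 on each array, with MPTP in red and saline in blue, and the mean and SD of 3 arrays as bars; each panel has its own axis, which does not start at 0. The first 3 genes are highest in midbrain, and Ndufaf8 and Ndufa1 are highest in striatum.

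Other genes of oxidative phosphorylation and of mitochondria were set beside the Nduf genes, with the 27.8% of all genes called higher and 23.6% called lower as background. Of 36 genes tested from complexes II to V, 18 were higher and 2 lower in saline midbrain than in saline frontal cortex, with a median of 0.18. Sdha, the flavoprotein of complex II, was 0.39 higher (limma adjusted p = 1.5e-05), and Cox8a, a subunit of complex IV, was lower by 0.37 (log2 difference -0.37, adjusted p = 2.4e-05). Of 14 genes for other mitochondrial proteins, taken as measures of mitochondrial content, 4 were higher and none was lower, with a median of 0.10. Of 10 assembly factors without an Nduf name 3 were higher, and of 12 transcriptional regulators 3 were higher, among them Ppargc1a, a coactivator of mitochondrial genes, by 0.90 (adjusted p = 8.4e-08). The shares of these last 3 lists called higher lay near that of all genes.

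Cell type markers differed between the same arrays. In saline midbrain against saline frontal cortex 7 of 7 oligodendrocyte, 6 of 8 astrocyte and 4 of 11 neuronal markers were higher, and 2 astrocyte, 4 neuronal and 4 of 8 microglial markers were lower. The summed level of the oligodendrocyte markers ran from 14.67 to 14.81 (log2 of the summed values) in saline midbrain and from 13.42 to 13.64 in saline frontal cortex, and that of the neuronal markers from 14.71 to 14.94 in saline midbrain and from 15.10 to 15.16 in saline frontal cortex. The part of cell composition in the differences between regions was not tested.

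MPTP and saline mice were compared within each region to ask whether complex I transcripts moved with the toxin. No Nduf gene was called in any single region at an adjusted p under 0.05 by limma, against 2.54% of all genes called in midbrain, 2.1% in striatum and 0.0681% in frontal cortex. At an unadjusted p under 0.05 there were 5 Nduf genes in midbrain, 6 in striatum and 1 in frontal cortex, against 16.6%, 16.3% and 6.13% of all genes. By limma on the arrays of the contrast alone, 1 Nduf gene, Ndufaf4, was called in frontal cortex (adjusted p = 0.0429). The share of all genes called in that refit is not given here. The 95% intervals of all 43 genes in the 3 regions lay within log2 differences of -0.41 and 0.52.

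**Figure D3:**
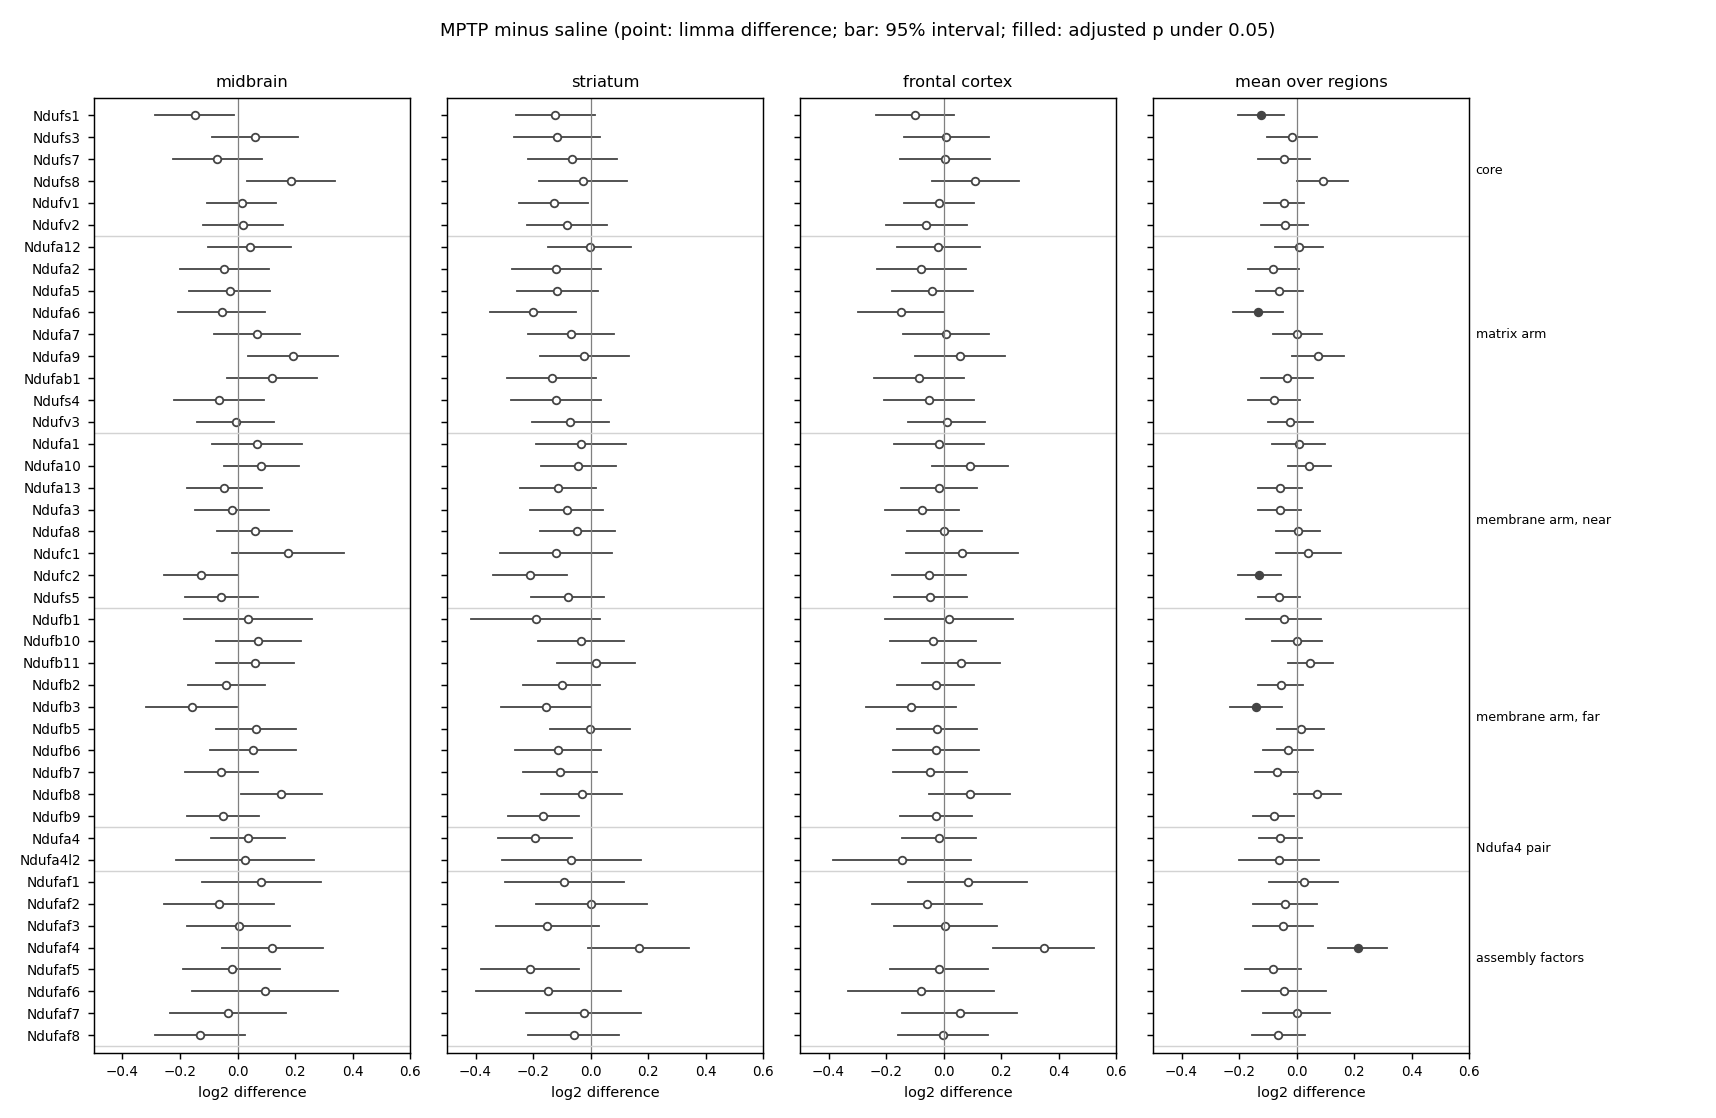
Log2 differences of MPTP minus saline for the 43 Nduf genes tested in midbrain, striatum, frontal cortex and as the mean over the regions, with 95% intervals as bars and filled points for an adjusted p under 0.05. No point is filled in a single region, and 5 are filled in the mean over the regions.

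In striatum the signs were uneven although no gene passed the test. The difference was below 0 for 40 of 43 Nduf genes (93%), against 59.1% of all genes, and its median was -0.09, against -0.03. The 3 exceptions were Ndufaf4, Ndufb11 and Ndufaf2. On the arrays themselves, the median of the Nduf genes, each taken relative to its mean over the 18 arrays, was -0.06, -0.18 and -0.19 in MPTP striatum, against -0.08, -0.02 and -0.06 in saline striatum. The first MPTP array lay within the saline range and the other 2 below it. The median of all genes, taken the same way, was -0.0098, -0.0644 and -0.0716 in MPTP striatum, against -0.0606, 0.0057 and -0.0333 in saline striatum. For all genes, too, the first MPTP array lay within the saline range and the other 2 below it. For 9 of the 43 genes every MPTP array was lower than every saline array, as it was for 14.7% of all genes.

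**Figure D4:**
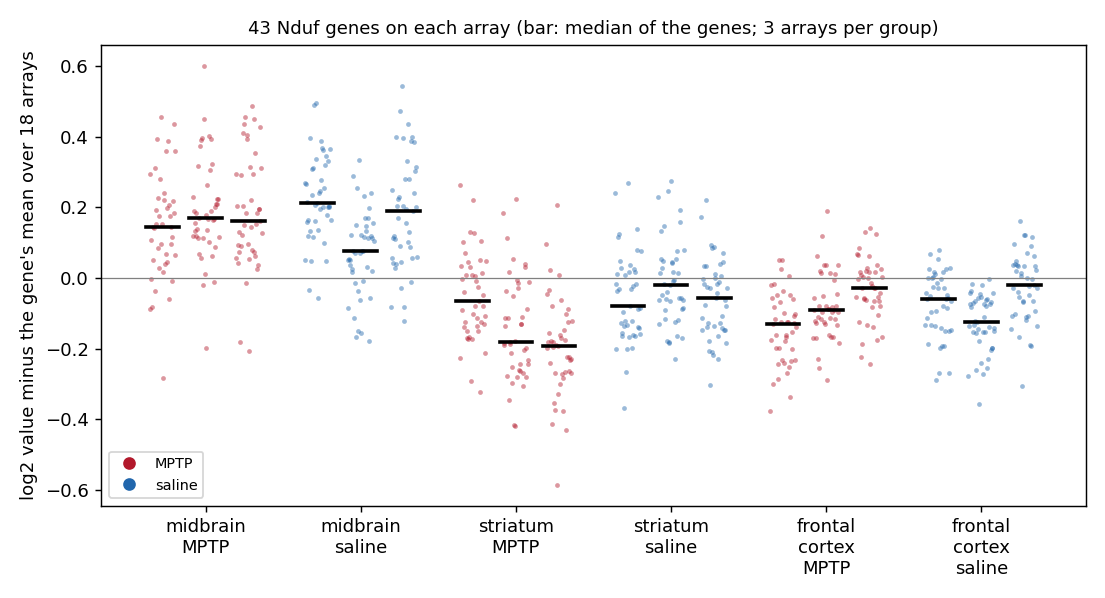
Each point is 1 of 43 Nduf genes on 1 array, as its log2 value minus its own mean over the 18 arrays, and the black bar is the median of the genes; MPTP arrays are red and stand left of the saline arrays of their region in blue. The medians lie between 0.07 and 0.21 on the midbrain arrays and below 0 on the arrays of striatum and frontal cortex.

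Several other measures moved with the striatal values. The interquartile ranges of the arrays were 3.58, 3.42 and 3.44 in MPTP striatum, against 3.40, 3.57 and 3.51 in saline striatum. With the interquartile range as a covariate the median was -0.08 and 3 Nduf genes were called lower. After a second quantile normalization the median was -0.12 and 6 were called lower, against none on the values as deposited. Shares of all genes called in these refits are not given here, so the counts have no background beside them. Of the cell type markers 4 of 8 for astrocytes, 5 of 7 for oligodendrocytes, 4 of 8 for microglia and 2 of 6 for endothelium were higher in MPTP striatum, and 1 of 11 for neurons was lower. The summed astrocyte level ran from 13.35 to 13.59 in MPTP striatum, against 13.13 to 13.24 in saline striatum. The 5 cortical markers were all below 0, with none called, and their summed level ran from 11.46 to 11.78 in MPTP striatum, against 11.85 to 11.97 in saline striatum. The part of these measures in the striatal values was not tested.

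The striatal genes of smallest p were Ndufc2, Ndufa4, Ndufa6, Ndufb9 and Ndufaf5. Ndufc2 had 11.03, 11.05 and 10.93 in MPTP striatum, against 11.19, 11.24 and 11.21 in saline striatum. All MPTP arrays lay below all saline arrays. The difference was -0.21 ± 0.062 (limma adjusted p = 0.079), and on the 2 other probe sets of Ndufc2 above the filter it was -0.10 and -0.05.

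Ndufa4 had 11.16, 11.02 and 11.06 in MPTP striatum, against 11.27, 11.33 and 11.22 in saline striatum, again without overlap. Its difference was -0.19 ± 0.062 (limma adjusted p = 0.107). Ndufb9, of the far membrane arm, differed by -0.16, and Ndufaf5 by -0.21, with adjusted p of 0.162 and 0.194.

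In midbrain, where the dopaminergic cell bodies lie, the Nduf genes were split. The difference was above 0 for 24 and below 0 for 19 of 43 genes, where 43% of all genes were below 0, with a median of 0.02, against 0.03 over all genes. A second quantile normalization turned that median to -0.07, against -0.01 over all genes, and called 3 Nduf genes lower. What share of all genes that refit called lower is not given here. For 22 of the 43 genes the difference was below 0 in striatum and above 0 in midbrain. Of all genes, 59.1% were below 0 in striatum, and the share with both signs is not given here.

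Ndufa9, a subunit near the ubiquinone site, had 10.76, 10.74 and 10.78 in MPTP midbrain, against 10.68, 10.44 and 10.60 in saline midbrain. The MPTP arrays all lay above the saline arrays. The difference was 0.19 ± 0.075 (limma adjusted p = 0.18).

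Ndufs8 had 11.99, 11.78 and 11.98 in MPTP midbrain, against 11.76, 11.58 and 11.86 in saline midbrain. These groups overlapped. The difference was 0.19 ± 0.074 (limma adjusted p = 0.183), and 4 of 5 other probe sets of Ndufs8 had the same sign, with -0.01 for the other. The remaining genes of smallest p in midbrain were Ndufs1 (-0.15), Ndufb8 (0.15) and Ndufb3 (-0.16), with adjusted p from 0.252 to 0.294.

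In frontal cortex the difference was below 0 for 27 and above 0 for 16 genes, where 35.9% of all genes were below 0, with a median of -0.02, against 0.04 over all genes. Ndufaf4 was the single Nduf gene with an unadjusted p under 0.05 there. After it, the smallest p belonged to Ndufa6 (-0.15), Ndufs1 (-0.10), Ndufs8 (0.11) and Ndufb3 (-0.11), with adjusted p from 0.802 to 0.883.

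The mean of the 3 regions was fitted with the animal label (treatment and replicate number) as a random block. The block correlation was 0.00558, so the 3 arrays of a label were treated as nearly independent. The labels do not say that a replicate number marks 1 mouse in each region. In that fit 5 of 43 Nduf genes were called (11.6%), against 9.04% of all genes. Ndufaf4 rose, and Ndufc2, Ndufb3, Ndufs1 and Ndufa6 fell, where 6.61% of all genes rose and 2.43% fell. By direction, 2.33% of the 43 Nduf genes rose and 9.3% fell. Of the 43 genes, 29 were below 0, against 46.1% of all genes, with a median of -0.04, against 0.01 over all genes. The count was 0 without striatum saline replicate 2 and 1 to 3 without any of 13 other arrays (named with the alternatives after the report). It was 1 without an intensity trend in the variances, 2 with no filter and 2 with the probe sets of each gene averaged. After a second quantile normalization it was 18, and the share of all genes called in that refit is not given here.

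Beside these calls, 4 of 8 astrocyte, 2 of 7 oligodendrocyte, 5 of 8 microglial and 3 of 6 endothelial markers rose and 1 of 11 neuronal markers rose and 1 fell in the mean over the regions, and the part of cell composition was not tested.

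Ndufaf4, an assembly factor of the early steps, had 9.26, 9.09 and 9.16 in MPTP midbrain, against 9.18, 8.94 and 9.02 in saline midbrain. It had 9.11, 8.93 and 9.18 in MPTP striatum, against 8.86, 8.79 and 9.06 in saline striatum, and 9.0, 9.01 and 9.01 in MPTP frontal cortex, against 8.69, 8.62 and 8.67 in saline frontal cortex. The groups overlapped in midbrain and striatum, and in frontal cortex every MPTP array was higher. The differences were 0.12, 0.17 and 0.35, and the mean over the regions rose by 0.21 ± 0.049 (limma adjusted p = 0.00856). It was called under all 9 alternatives and in 17 of the 18 fits that each left out 1 array, the exception being striatum saline replicate 2 (adjusted p = 0.064). A second probe set of Ndufaf4 differed by 0.19 in frontal cortex.

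Ndufs1, the largest core subunit, had 10.45, 10.47 and 10.49 in MPTP midbrain, against 10.65, 10.50 and 10.71 in saline midbrain. It had 10.18, 10.10 and 10.08 in MPTP striatum, against 10.29, 10.25 and 10.20 in saline striatum, and 10.07, 10.22 and 10.13 in MPTP frontal cortex, against 10.25, 10.17 and 10.30 in saline frontal cortex. The MPTP arrays lay below the saline arrays in midbrain and striatum and overlapped them in frontal cortex. The mean over the regions fell by 0.12 ± 0.038 (limma adjusted p = 0.0447).

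Ndufb3, of the far membrane arm, had 9.99, 10.02 and 10.00 in MPTP midbrain, against 10.20, 10.04 and 10.26 in saline midbrain, and all MPTP arrays lay below the saline arrays. It had 9.91, 9.66 and 9.65 in MPTP striatum, against 9.89, 9.92 and 9.88 in saline striatum, and 9.76, 9.76 and 9.90 in MPTP frontal cortex, against 9.92, 9.85 and 10.00 in saline frontal cortex, with overlap in both. The mean over the regions fell by 0.14 ± 0.044 (adjusted p = 0.0447 by limma).

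Ndufa6 had 10.49, 10.50 and 10.48 in MPTP midbrain, against the saline values given above, and the groups overlapped. It had 10.06, 9.84 and 9.77 in MPTP striatum, against 10.06, 10.17 and 10.04 in saline striatum, and 9.99, 9.93 and 10.00 in MPTP frontal cortex, against 10.09, 10.05 and 10.22 in saline frontal cortex. The groups overlapped in striatum and were separate in frontal cortex. The mean over the regions fell by 0.13 ± 0.042 (limma adjusted p = 0.047).

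Ndufc2 had 11.53, 11.52 and 11.51 in MPTP midbrain, against 11.68, 11.53 and 11.74 in saline midbrain. It had 11.31, 11.35 and 11.39 in MPTP frontal cortex, against 11.38, 11.35 and 11.47 in saline frontal cortex. The groups overlapped in both regions, and striatum, given above, was the region without overlap. The mean over the regions fell by 0.13 ± 0.036 (limma adjusted p = 0.0261), and it was -0.02 (adjusted p = 0.755) when its 4 probe sets were averaged. Of the 18 fits that each left out 1 array, 13 called Ndufc2, 5 called Ndufb3, 4 called Ndufs1 and 4 called Ndufa6.

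**Figure D5:**
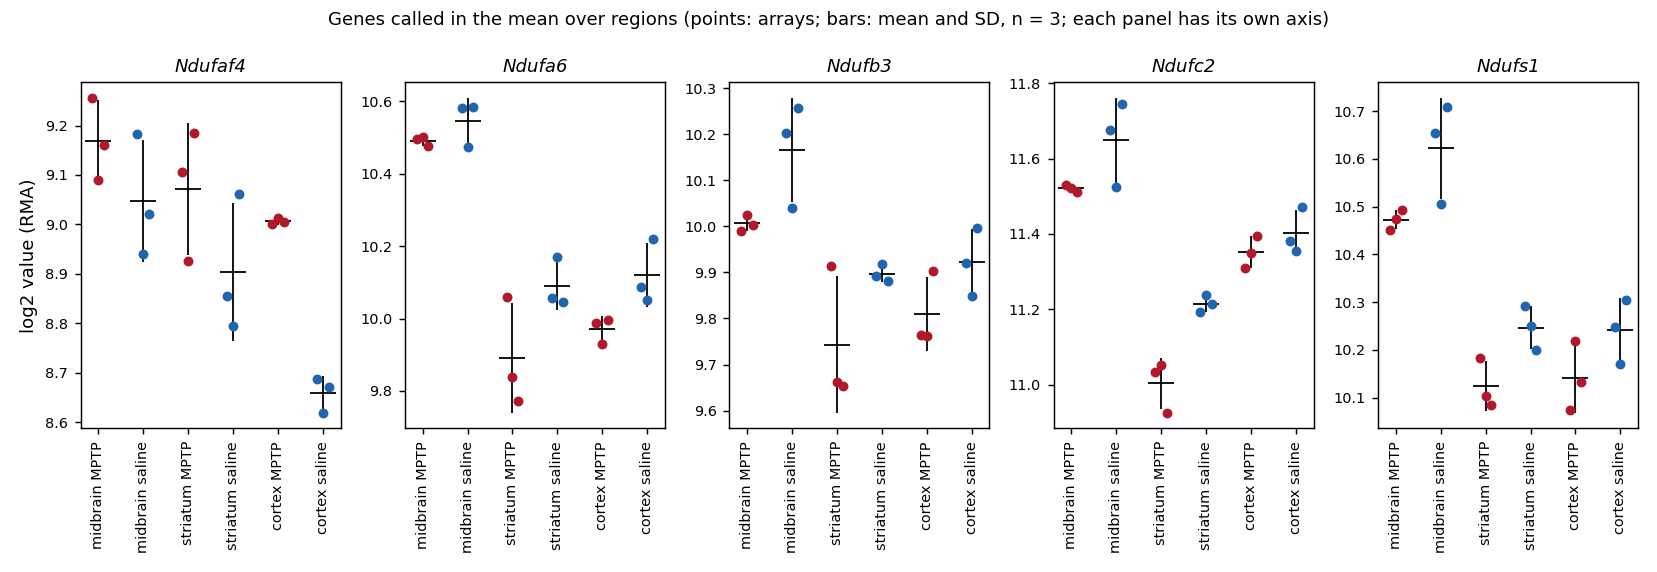
RMA log2 values of the 5 Nduf genes called in the mean over the regions, on each array, with MPTP in red left of saline in blue for each region and the mean and SD of 3 arrays as bars; each panel has its own axis, which does not start at 0. Ndufaf4 has higher MPTP means in all 3 regions, and the other 4 genes have lower ones.

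The response to MPTP was not shown to differ between regions for any Nduf gene. By limma's test of the difference itself, 0 of 43 genes were called for striatum against frontal cortex, 0 for midbrain against frontal cortex and 0 for midbrain against striatum, where 0.0596%, 0% and 0.0681% of all genes were called. At an unadjusted p under 0.05 there were 0, 0 and 3 Nduf genes, against 7.75%, 4.97% and 5.89% of all genes. The 3 were Ndufa4 (0.23 ± 0.088, adjusted p = 0.72), Ndufab1, the mitochondrial acyl carrier protein (0.26 ± 0.107, adjusted p = 0.815), and Ndufc1 of the near membrane arm (0.29 ± 0.133, adjusted p = 0.817), all with the larger value in midbrain. The smallest p for striatum against frontal cortex belonged to Ndufa4 (-0.18), Ndufc2 (-0.16) and Ndufaf5 (-0.19), and for midbrain against frontal cortex to Ndufab1 (0.21), Ndufaf4 (-0.23) and Ndufa9 (0.14). Their adjusted p lay between 0.653 and 1.0. The comparisons share their arrays in pairs.

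Few other mitochondrial genes were called with MPTP, where 2.54% of all genes were called in midbrain and 2.1% in striatum. Of the 36 genes of complexes II to V, 32 were above 0 and 4 below 0 in midbrain, where 43% of all genes were below 0, with 1 called, Atp5pb of the ATP synthase (0.39, limma adjusted p = 0.0209). In striatum 27 of the 36 were below 0, where 59.1% of all genes were, with 1 called, Atp5g1 of the ATP synthase (-0.28, adjusted p = 0.0277). With 1 of 36 called in each region, the share lay near that of all genes. Of the genes for mitochondrial content 2 of 14 rose in midbrain, the import receptor Tomm20 by 0.49 (adjusted p = 0.0179) and the outer membrane channel Vdac3 by 0.34 (adjusted p = 0.0189).

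Of the 12 regulators, Ppargc1a rose in striatum by 0.40 (limma adjusted p = 0.0413) and in frontal cortex by 0.55 (adjusted p = 0.0472), and its midbrain difference was -0.01. Of the 10 assembly factors without an Nduf name, none was called in a single region. In the mean over the regions Timmdc1, which acts in the assembly of the membrane arm, rose by 0.24 (adjusted p = 0.0431), and Nubpl, which inserts iron-sulfur clusters, had -0.19 (adjusted p = 0.0624).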

How the data were processed

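The authors deposited log2 values, 1 per probe set, from RMA according to the submitters' processing notes; its version is not given in the sources used here. Although RMA normalizes arrays to each other, the deposited ones differed in interquartile range (3.37 to 3.65). Of 45101 probe sets, 34958 named 1 gene. Symbols came from the array annotation and were updated through GRCm38.p6. One limma fit (version 3.58.1, R 4.3.3) held the means of the 6 groups over 18 arrays, with a variance trend, and Benjamini-Hochberg adjustment ran over 11741 genes. Called means an adjusted p under 0.05. Moderation took the residual degrees of freedom to 23.2, against 12 before. In the mean over regions the animal label was a random block (correlation 0.00558). The members and gene lists were chosen with earlier results of these data known. Named genes were all called for MPTP, the 5 of smallest p per region, the 3 of smallest p per response difference and the 4 widest saline differences each way. The procedure was tested on simulated data. Precision is limited by having 3 arrays in a group.

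The labels do not say that a replicate number marks 1 mouse in each region. Deviations of same-numbered arrays of 2 regions correlated at -0.23 to 0.34, over 0.1 in 11 of 18 pairs, and those of MPTP and saline arrays at -0.19 to 0.29, over 0.1 in 3 of 9 pairs. Saline midbrain with frontal cortex and MPTP midbrain with striatum exceeded 0.1 in all 3 pairs. Saline striatum gave -0.13, -0.20 and 0.14 with frontal cortex and -0.16, -0.23 and 0.06 with midbrain. These correlations do not settle the pairing. The block nevertheless took each replicate number of a treatment as 1 animal across the 3 regions, on all 18 arrays. Alternatives changed the filter, normalization, probe sets, variances, covariates, blocks and arrays.

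The symbols seen only on probe sets of several genes were not used. Of the 44 genes, 22 had more than 1 probe set, and 36 other probe sets lay above the filter. Their sign matched in 27 for frontal cortex, 22 for striatum and 25 for midbrain with MPTP. Between saline regions it matched in 34 for midbrain minus frontal cortex, 30 for midbrain minus striatum and 24 for striatum minus frontal cortex.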

Additional observations from a re-analysis of the deposited data

How the results depend on the processing

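Counting each refit of each gene named in a comparison, 722 refitted values kept their side of the threshold, 71 lost a call, 11 gained one and none turned direction. For saline midbrain 24 to 35 genes were called against frontal cortex and 21 to 30 against striatum under the alternatives. The median for MPTP in striatum ran from -0.13 to -0.061 without single arrays and stayed below 0, and those in midbrain (-0.015 to 0.063) and frontal cortex (-0.044 to 0.0081) changed sign. Signal limited 1 gene, Ndufb4, which lay below the filter. With only the arrays of the contrast 1 gene was called for MPTP in frontal cortex. After a second quantile normalization 6 were called in striatum, 3 in midbrain (median -0.066), 17 between saline striatum and frontal cortex (14 higher and 3 lower, against 8 and 1) and 18 in the mean over regions (1 higher and 17 lower, against 1 and 4). The interquartile range as a covariate gave 3 in striatum. No share of all genes called stands beside the counts of these refits. Without the narrowest saline array of every region (by interquartile range) there were 5 for saline striatum minus frontal cortex, with a median of 0.24 for saline midbrain minus striatum. Centring on the array median gave a median of -0.039 for saline striatum minus frontal cortex, with 3 higher and 4 lower. The mean over regions gave 2 with no filter, 2 with the mean over probe sets and 1 without an intensity trend.

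Without single arrays, the count ran from 4 to 8 for saline striatum minus frontal cortex, from 7 to 12 for MPTP striatum minus frontal cortex and from 0 to 5 for the mean over regions, and the median of saline midbrain minus striatum from 0.13 to 0.24. For the mean over regions it was 0 without striatum saline replicate 2. It was 1 without striatum saline replicate 1, striatum MPTP replicate 3 or midbrain MPTP replicate 3. It was 2 without frontal cortex saline replicate 3, striatum saline replicate 3, midbrain saline replicate 3, frontal cortex MPTP replicates 1 or 2, striatum MPTP replicate 2 or midbrain MPTP replicates 1 or 2. It was 3 without frontal cortex saline replicate 1 or frontal cortex MPTP replicate 3. The cause was not tested.

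With the replicate block, 28 genes were called for saline midbrain minus frontal cortex, 24 for saline midbrain minus striatum, 8 for saline striatum minus frontal cortex, 30 for MPTP midbrain minus striatum, 5 for the mean over regions and 0 for MPTP in each region, and the block moved no count by over 1.5 times. The main fit of the mean over regions already held the animal label as a random block.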
